A study of Mus musculus with 9 samples.

Results

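The genes described here carry calcium across the inner mitochondrial membrane of the mouse heart. They are 8 genes chosen by name, *Mcu*, *Mcub*, *Smdt1*, *Micu2*, *Micu3* and *Mcur1* of the calcium uniporter, and *Slc8b1* and *Letm1* of the exchange pathways, out of 52636 genes in the count table. All 8 were among the 16322 genes with enough reads to be tested. Total RNA of the left ventricle was sequenced from C57BL6J mice aged 16 weeks, in 9 libraries. Libraries 1 to 5 carry the label VDAC2 WT and libraries 6 to 9 the label VDAC2 KO. The KO is a deletion of floxed *Vdac2* by Cre under the αMHC promoter, which acts in cardiac muscle cells, so that other cells of the ventricle keep the gene. The WT mice of the study carried either the floxed gene or Cre alone. The study describes its experiments as biological replicates, but the labels do not tie each library to an animal, so p-values measure the spread between these libraries. A WT sample was left out of the study's own analysis for poor RNA quality. Which sample that was, and whether it is among these libraries, is not stated, and all 9 were kept here.

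Calcium that leaves the sarcoplasmic reticulum crosses the outer mitochondrial membrane through porins such as VDAC2 and enters the matrix through the uniporter. MCU forms the pore of the uniporter, MCUB is a related subunit that lowers its conductance, and EMRE, the product of *Smdt1*, is needed for the pore to open in animals. MICU proteins sense calcium in the intermembrane space and gate the pore, and MCUR1 is a scaffold factor of the complex. In the heart, matrix calcium stimulates dehydrogenases and so ties energy supply to the beat. NCLX, the product of *Slc8b1*, returns calcium in exchange for sodium, and LETM1 is an inner membrane protein of cation and proton exchange.

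The level of *Vdac2* (chromosome 14 of GRCm38, 21825238 to 21845879) did not follow the labels. Levels are given as CPM, counts scaled to a normalized library size of 1000000 reads. *Vdac2* stood at 20.2, 366, 58.5, 365 and 21.3 CPM across libraries 1 to 5, which are labelled WT. Across libraries 6 to 9, labelled KO, it stood at 384, 20.5, 421 and 19.1 CPM. Of the 9 libraries, 4 therefore lay between 19.1 and 21.3 CPM (libraries 1, 5, 7 and 9), 4 between 365 and 421 CPM (libraries 2, 4, 6 and 8), and library 3 lay between these ranges. Below, the first 4 are called *Vdac2*-low libraries (under 100 CPM) and the second 4 *Vdac2*-high libraries (over 300 CPM), and library 3, although under 100 CPM, is shown apart. This division uses a measured value and is not a genotype. It is therefore used for description only, with every library's value shown, with no test and with no library moved from its label. Tests compare the deposited labels.

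Some properties of the libraries bear on every result. Total counts ran from 27345052 to 44673988. The label coincides with the sequencing lane and with *Xist*, which was at least 335 CPM in each library labelled KO and at most 0.152 CPM in each labelled WT, so label, lane and sex cannot be told apart. The *Vdac2*-low and *Vdac2*-high libraries each hold 2 libraries of each label. Markers of heart muscle were abundant in every library, and the summed level of 8 cardiomyocyte markers ranged from 48854 to 68880 CPM outside library 3. Library 3, labelled WT, stood apart. It held 14871 CPM of these markers, with all 8 below every other library, and 603 CPM of 5 leukocyte markers against 143 to 293 CPM, with all 5 above. Mitochondrially encoded genes gave 9.07% of its counts against 16.8% to 19.2%. The sum of 6 fibroblast markers was 2858 CPM against 884 to 1330 CPM, with 4 of the 6 above every other library. These were the collagen genes *Col1a1* (691 CPM) and *Col1a2* (1412 CPM), which made up most of the sum, *Pdgfra* (149 CPM against at most 120 CPM) and *Tcf21* (8.85 against at most 7.43 CPM). *Dcn* was below all other libraries (454 against 560 to 935 CPM), and *Lum* was within their range. Only 2 of 3 atrial markers and 1 of 3 adipocyte markers had enough reads to be tested, with summed levels of at most 4.13 and 1.19 CPM. Between the sets, the cardiomyocyte sum was 48854 to 56642 CPM in the *Vdac2*-low and 57971 to 68880 CPM in the *Vdac2*-high libraries, but of its 8 genes only *Myl3* was lower without overlap, and *Tnnt2* and *Mybpc3* were highest in *Vdac2*-low library 9. The leukocyte sum was 219 to 293 CPM and 143 to 207 CPM, with 3 of 5 genes higher without overlap (*Ptprc*, *Cd68* and *Adgre1*). The fibroblast sum overlapped (1147 to 1330 and 884 to 1148 CPM), with 2 of 6 genes higher without overlap, *Col1a2* (115 to 153 against 67.6 to 90.4 CPM) and *Tcf21* (5.81 to 7.43 against 4.30 to 5.06 CPM). The sums of 5 endothelial and 5 mural markers overlapped too, with 1 gene of each lower without overlap (*Pecam1* and *Kcnj8*). Over all tested genes, 4.93% were lower and 7.16% higher without overlap in the *Vdac2*-low libraries. In bulk tissue, fewer cells of a type and less RNA per cell cannot be told apart.

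**Figure D1:**
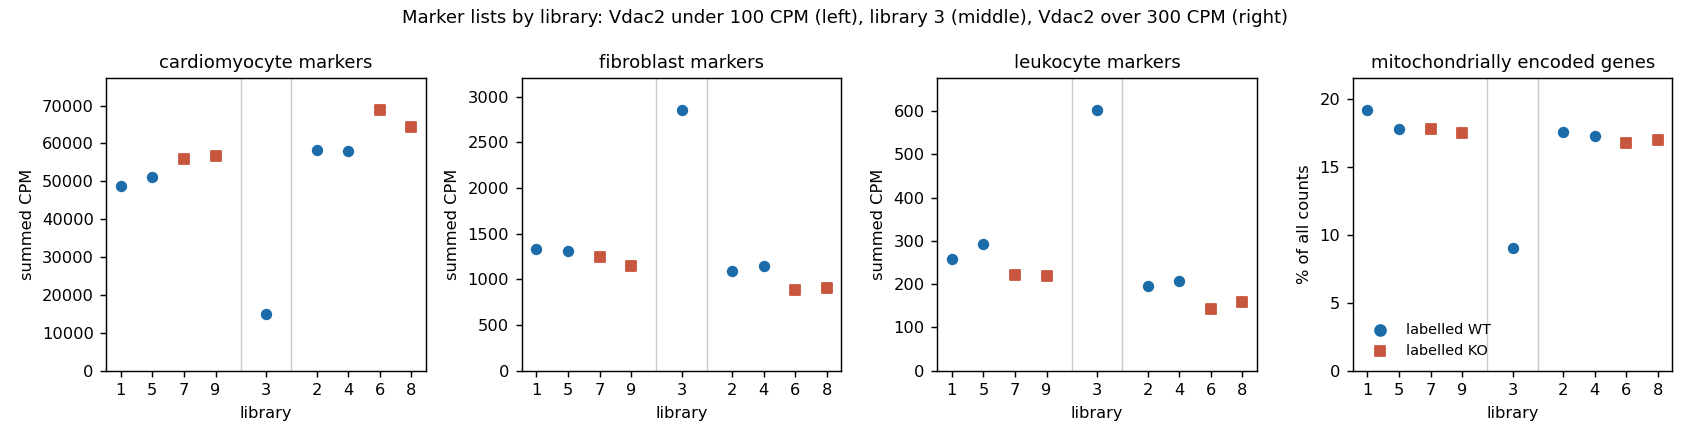
Summed CPM of the cardiomyocyte, fibroblast and leukocyte markers and the percentage of counts from mitochondrially encoded genes, 1 point per library, with *Vdac2*-low libraries on the left, library 3 in the middle and *Vdac2*-high libraries on the right. Library 3 has the lowest cardiomyocyte sum (14871 CPM) and the highest leukocyte sum (603 CPM).

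The members lie on 7 chromosomes of GRCm38, and all are protein coding. *Mcu* (ENSMUSG00000009647) occupies chromosome 10 from 59446984 to 59616692 on the minus strand. *Mcub* (ENSMUSG00000027994) is on chromosome 3 from 129914960 to 129970206, *Smdt1* (ENSMUSG00000022452) on chromosome 15 from 82338959 to 82349091, and *Mcur1* (ENSMUSG00000021371) on chromosome 13 from 43538393 to 43560191. *Micu2* (ENSMUSG00000021973) is on chromosome 14 from 57916261 to 57999262, the chromosome of *Vdac2*, and *Micu3* (ENSMUSG00000039478) on chromosome 8 from 40307458 to 40386308. *Slc8b1* (ENSMUSG00000032754, 120511168 to 120534024) and *Letm1* (ENSMUSG00000005299, 33739673 to 33782817) are both on chromosome 5. *Smdt1* overlaps *Pheta2* on the same strand over 6785 bases, and 245 of the 1479 bases of its merged exons (16.6%) are also exon of that gene, so that its reads there are uncertain. *Mcu* overlaps *Gm10322*, and *Micu3* overlaps *Fgf20*, on opposite strands, and how the counting used strand is not given in the sources used here.

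RefSeq promoter windows of GRCm38.p6, from 250 bases before to 50 bases after the transcript start, were matched for 6 of the 8 members. *Micu3* and *Slc8b1* had no match. The windows of *Mcu* and *Mcur1* are shown because these genes were lower in all *Vdac2*-low libraries, that of *Letm1* because it was lower within each label, and that of *Mcub* because this paralogue of *Mcu* had the widest spread between libraries. They read 5′ to 3′ on the strand of the gene, which is the minus strand for each, and capitals mark every letter of a motif searched for.
*Mcu*, chr10:59616643-59616942: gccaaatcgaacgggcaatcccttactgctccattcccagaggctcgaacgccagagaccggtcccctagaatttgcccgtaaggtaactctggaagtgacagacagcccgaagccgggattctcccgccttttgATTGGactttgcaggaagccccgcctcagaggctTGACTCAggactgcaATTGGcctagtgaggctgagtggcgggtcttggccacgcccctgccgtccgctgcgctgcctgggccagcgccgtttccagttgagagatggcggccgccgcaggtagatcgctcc
*Mcub*, chr3:129970157-129970456: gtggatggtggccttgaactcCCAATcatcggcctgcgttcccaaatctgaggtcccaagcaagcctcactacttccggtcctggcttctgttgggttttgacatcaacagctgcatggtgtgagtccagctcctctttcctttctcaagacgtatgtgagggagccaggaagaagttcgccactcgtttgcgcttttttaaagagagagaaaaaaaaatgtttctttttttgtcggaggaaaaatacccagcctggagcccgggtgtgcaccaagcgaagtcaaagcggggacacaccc
*Mcur1*, chr13:43560142-43560441: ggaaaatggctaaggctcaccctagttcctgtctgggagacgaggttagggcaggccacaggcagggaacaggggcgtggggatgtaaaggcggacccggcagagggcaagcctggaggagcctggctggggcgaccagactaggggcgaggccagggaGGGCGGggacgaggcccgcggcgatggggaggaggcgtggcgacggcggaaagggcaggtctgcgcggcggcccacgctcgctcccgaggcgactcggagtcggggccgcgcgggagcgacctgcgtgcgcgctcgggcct
*Letm1*, chr5:33782668-33782967: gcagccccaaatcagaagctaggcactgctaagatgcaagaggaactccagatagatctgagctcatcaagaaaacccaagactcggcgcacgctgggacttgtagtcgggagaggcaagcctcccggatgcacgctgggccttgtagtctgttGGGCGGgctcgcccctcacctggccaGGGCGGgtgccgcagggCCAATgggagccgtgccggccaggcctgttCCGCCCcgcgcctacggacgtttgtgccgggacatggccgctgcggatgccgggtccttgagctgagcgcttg

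Motifs were searched on both strands of the 6 windows and of all 32851 windows of the table. The GC box (GGGCGG or CCGCCC) was found in 4 of the 6, those of *Micu2*, *Smdt1*, *Mcur1* and *Letm1*, against 35.7% of all windows. The CCAAT box (CCAAT or ATTGG) was found in 3, those of *Mcu*, *Mcub* and *Letm1*, against 37.4%. *Mcu* held 2 copies of ATTGG on either side of an AP-1 motif (TGACTCA or TGAGTCA), which is in 5.20% of windows. The window of *Smdt1* (chr15:82345796-82346095, plus strand) held the cAMP response element (TGACGTCA), which is in 1.79% of windows. The TATA box (TATAAA or TTTATA), the E-box (CACGTG), an ATF4 element (TGATGCAA or TTGCATCA) and the NRF1 palindrome were in none of the 6 windows. The GC content of the 6 windows ran from 51.0% for *Mcub* to 72.3% for *Mcur1*, against a median of 52.7% over all windows, and no motif was shared by *Mcu* and *Mcur1*.

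Per length of merged exons, *Smdt1* and *Micu2* were far more abundant than the pore gene *Mcu*. Merged exons join those of all annotated transcripts of a gene, and which transcripts were expressed was not examined. Without length, the medians of *Smdt1*, *Micu2* and *Mcu* were 67.1, 69.2 and 18.2 CPM. The level of *Smdt1* was 45.3 CPM per kilobase of merged exons (median of 9 libraries, range 32.9 to 56.0), and that of *Micu2* was 22.5 (range 20.5 to 26.3). *Mcur1* followed at 8.67 (4.57 to 9.58) and *Letm1* at 6.47 (4.24 to 8.06). *Mcu* was at 2.62 CPM per kilobase (2.48 to 3.07), *Mcub* at 2.21 (1.33 to 9.72), *Slc8b1* at 2.01 (1.59 to 2.18) and *Micu3* at 1.81 (1.62 to 1.99). The order of *Smdt1*, *Micu2* and *Mcur1* was the same in every library, since their ranges did not overlap. *Mcur1* and *Letm1* overlapped, as did each neighbouring pair from *Mcu* down to *Micu3*, so the order among these was not clear of the spread between libraries. How reads in the exon bases that *Smdt1* shares with *Pheta2* were counted is not known here, and their effect on its value per kilobase was not tested.

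**Figure D2:**
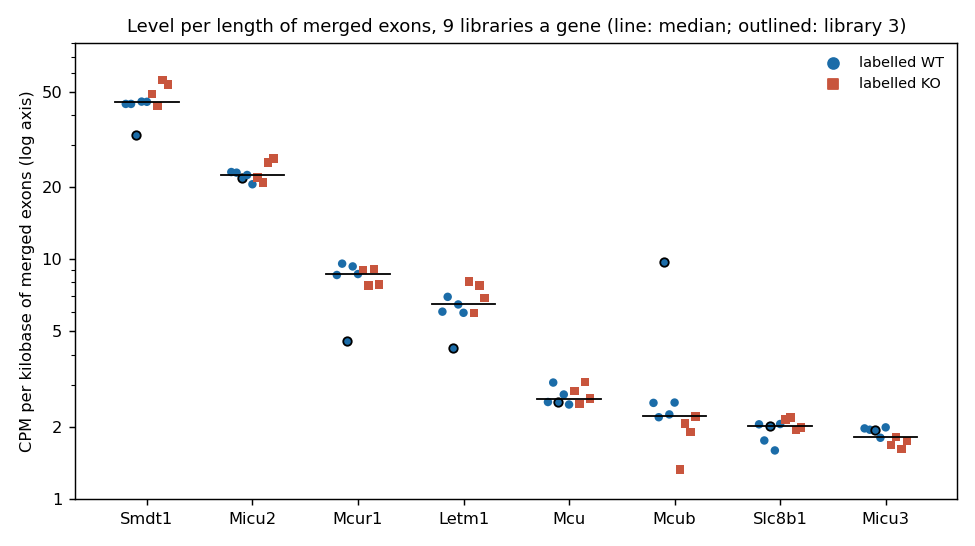
CPM per kilobase of merged exons (log axis) of each of the 8 genes in 9 libraries, with blue circles for libraries labelled WT, red squares for libraries labelled KO, a line at the median and library 3 outlined. *Smdt1* (median 45.3) and *Micu2* (22.5) lie above the other genes, and *Mcub* in library 3 (9.72) lies apart from its other values.

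Described by the level of *Vdac2*, the pore gene *Mcu* and the scaffold gene *Mcur1* were lower in all *Vdac2*-low libraries than in any *Vdac2*-high library. The 6 other members overlapped. Over all tested genes, 4.93% were lower without overlap and 7.16% higher, 12.1% in all. These shares belong to the division itself, from which nothing is inferred, and the members were picked with such values already known.

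*Mcu* was between 17.2 and 18.2 CPM in the *Vdac2*-low libraries, at 17.6, 17.2, 17.3 and 18.2 CPM in libraries 1, 5, 7 and 9. It was at 21.2, 18.9, 19.6 and 21.3 CPM in libraries 2, 4, 6 and 8, and at 17.6 CPM in library 3. Each low library was below each high library, with ratios between 0.807 and 0.961 over the 16 pairs of libraries. The difference was therefore small. The gap between the nearest libraries, 9 and 4, was of the order of the counting error of a single library. That error reached 4.49% for the 497 reads of library 4, which had the fewest. The error of a difference between libraries is larger and was not computed, so the separation of *Mcu* is not shown to be clear of it.

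*Mcub*, the subunit that lowers uniporter conductance, went the other way within each label. Its level in libraries 1, 5, 7 and 9 was 3.32, 3.33, 2.72 and 2.91 CPM. In libraries 2, 4, 6 and 8 it was 2.89, 2.97, 1.75 and 2.50 CPM, so that library 7 lay below libraries 2 and 4, and library 9 below library 4. The pair ratios ran from 0.915 to 1.90, with the low library below the high library in 3 of 16 pairs. Library 3 held 12.8 CPM of *Mcub*, more than any other library. It was also the library with the highest sums of leukocyte markers (603 CPM) and of fibroblast markers (2858 CPM). The leukocyte sum was higher in the *Vdac2*-low libraries as well, with 3 of 5 genes higher without overlap. The fibroblast sums overlapped, but 2 of 6 genes, *Col1a2* and *Tcf21*, were higher there without overlap. Over all tested genes, 7.16% were higher there in this way. The part of these cell types in the level of *Mcub* was not tested. *Mcub* had as few as 66 reads in a library, a counting error of 12.3%.

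*Smdt1*, which encodes EMRE, did not separate by *Vdac2*. It was at 65.7, 67.1, 64.5 and 79.2 CPM in libraries 1, 5, 7 and 9 and at 65.7, 67.2, 72.4 and 82.9 CPM in libraries 2, 4, 6 and 8. Library 3 was lowest, at 48.6 CPM. The higher values of both sets were in libraries labelled KO, although library 7 with the same label was among the lowest.

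Of the gatekeepers, *Micu2* encodes a calcium-binding subunit that gates the pore. It ranged from 63.3 to 81.1 CPM in the *Vdac2*-low and from 67.5 to 78.1 CPM in the *Vdac2*-high libraries, with 67.5 CPM in library 3. These ranges overlapped almost fully.

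*Micu3*, a MICU paralogue described as an enhancer of uptake, was at 12.1, 12.2, 11.1 and 10.7 CPM in libraries 1, 5, 7 and 9. In libraries 2, 4, 6 and 8 it was at 12.0, 11.1, 10.3 and 9.94 CPM, and in library 3 at 11.9 CPM. The sets overlapped, but within each label both *Vdac2*-low libraries were above both *Vdac2*-high libraries. *Micu3* was also lower in the libraries labelled KO than in those labelled WT at each level of *Vdac2*.

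*Mcur1* was at 60.8, 61.4, 54.9 and 55.4 CPM in libraries 1, 5, 7 and 9 and at 67.8, 66.0, 63.8 and 64.5 CPM in libraries 2, 4, 6 and 8. The pair ratios lay between 0.809 and 0.962, all below 1. The nearest libraries, 5 and 6, had 2011 and 2404 reads, and their gap was not set against counting error. Library 3, at 32.4 CPM, was lowest by a wide margin. Of the 8 cardiomyocyte markers, all were lowest in library 3. Of these markers, 1 (*Myl3*) was lower without overlap in the *Vdac2*-low libraries, beside 4.93% of all tested genes. The part of these markers in the level of *Mcur1* and *Mcu* was not tested.

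Of the exchange genes, *Slc8b1* (NCLX) was at 7.09, 7.11, 7.57 and 6.88 CPM in libraries 1, 5, 7 and 9. It was at 6.07, 5.52, 7.43 and 6.71 CPM in libraries 2, 4, 6 and 8, and at 6.96 CPM in library 3. Library 6 alone reached into the range of the *Vdac2*-low libraries. Within the WT label the low libraries were above the high ones, and within the KO label they overlapped.

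*Letm1* was at 58.3, 57.7, 57.4 and 66.3 CPM in libraries 1, 5, 7 and 9 and at 67.2, 62.5, 77.8 and 74.8 CPM in libraries 2, 4, 6 and 8. Library 9 overlapped with library 4 alone, and the low library was below the high library in 15 of 16 pairs. Library 3 was lowest at 40.9 CPM.

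**Figure D3:**
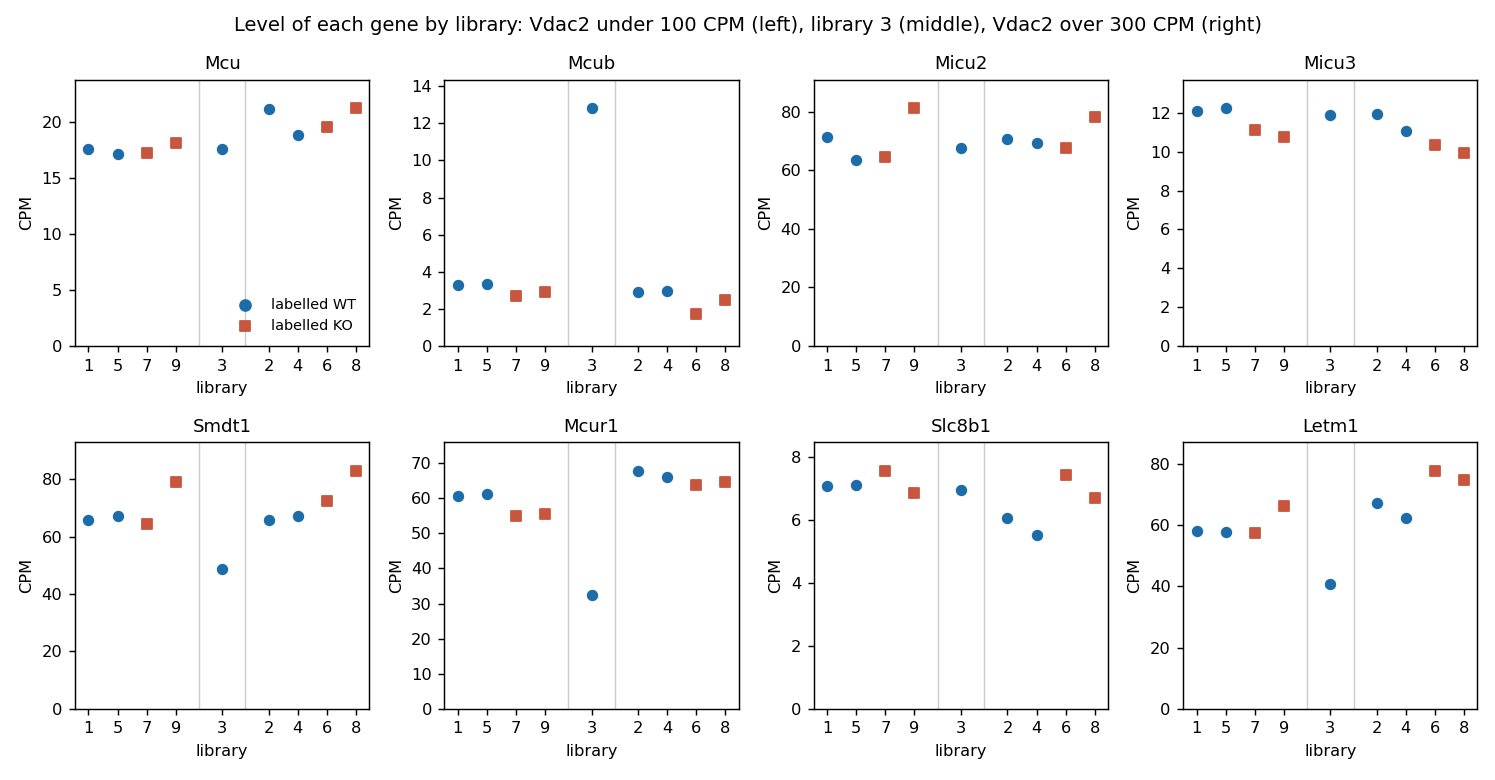
CPM of each of the 8 genes, 1 point per library, with the *Vdac2*-low libraries 1, 5, 7 and 9 on the left, library 3 in the middle and the *Vdac2*-high libraries 2, 4, 6 and 8 on the right, blue circles for labelled WT and red squares for labelled KO. *Mcu* (17.2 to 18.2 against 18.9 to 21.3 CPM) and *Mcur1* (54.9 to 61.4 against 63.8 to 67.8 CPM) do not overlap between left and right.

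Within each label, with libraries 1 and 5 beside 2 and 4 and libraries 7 and 9 beside 6 and 8, 3 members were lower in the *Vdac2*-low libraries in both labels and 2 were higher in both (*Mcub* and *Micu3*). Of the lower members, *Mcu* and *Mcur1* follow from the separation of all 8 libraries, and *Letm1* is added. Over all tested genes these shares were 8.58% and 11.3%, or 19.9% together. The separation of *Mcu* and *Mcur1* depended on what the counts were scaled to. Scaled to total counts, *Mcu* alone remained without overlap (13.9% of all tested genes), and relative to the summed counts of the nuclear oxidative phosphorylation genes, 0 of the 8 members did (16.2%).

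Reads relative to *Mcu* in the same library do not depend on library scaling. These ratios were added after the values had been seen. *Mcub* held 0.157 to 0.194 reads per *Mcu* read in the *Vdac2*-low libraries and 0.0894 to 0.157 in the *Vdac2*-high libraries. Library 3 held 0.729. *Micu3* held 0.591 to 0.712 against 0.467 to 0.586 reads per *Mcu* read, and *Micu2* 3.69 to 4.47 against 3.34 to 3.67. The ratio of *Slc8b1* to *Mcu*, of efflux to uptake gene, was 0.379 to 0.438 against 0.286 to 0.379 and overlapped by a narrow margin. Thus 3 of 7 ratios did not overlap, each higher in the *Vdac2*-low libraries, beside 26.2% of all other tested genes that were higher and 0.625% that were lower in this way, 26.8% in all. *Mcu*, the common denominator, was itself lower there. The nearest values of the sets differed by 0.198% for *Mcub*, 0.414% for *Micu2* and 0.912% for *Micu3*, all under the counting error of those differences (16.1%, 6.34% and 9.42%), so that none of the 3 separations is clear of counting error.

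**Figure D4:**
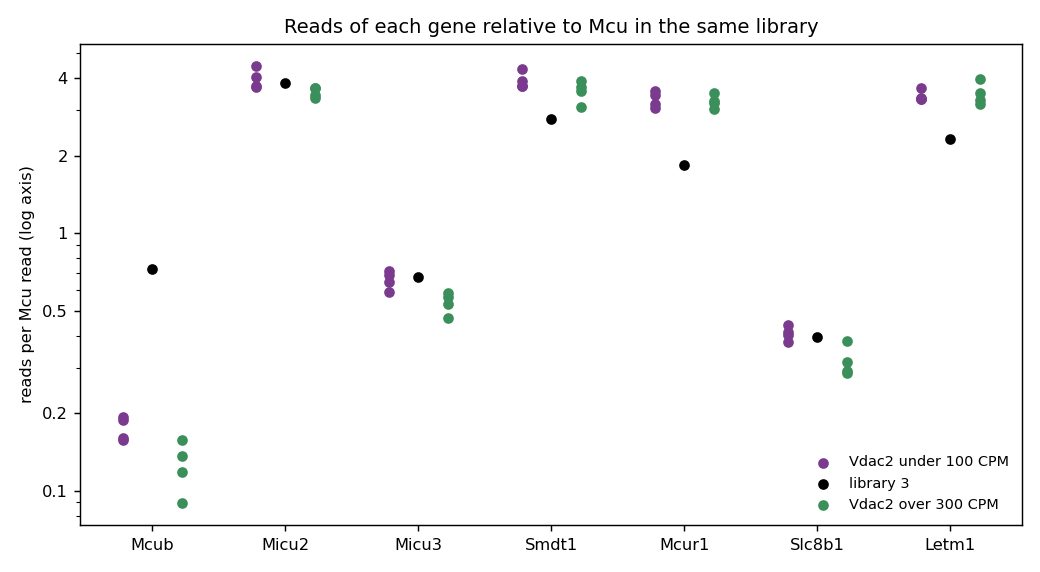
Reads of each of 7 genes per read of *Mcu* in the same library (log axis), in purple for the 4 *Vdac2*-low libraries, black for library 3 and green for the 4 *Vdac2*-high libraries. *Mcub*, *Micu2* and *Micu3* do not overlap between purple and green, by gaps of at most 0.912%, and *Mcub* in library 3 (0.729) is far above the rest.

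The comparison of the study is of KO with WT, and between the deposited labels 0 of the 8 members were called changed. The quasi-likelihood test of edgeR, adjusted over 16322 genes by the Benjamini-Hochberg method, called 9 genes, or 0.0551%, and 997 had an unadjusted p under 0.05 (6.11%). None of the 8 members had an unadjusted p under 0.05, and DESeq2 also called 0 of them. Without library 3, edgeR called 62 genes and again 0 of the 8. The libraries of both labels overlapped for all 8 members, beside 4.36% of tested genes that did not overlap. Their lowest adjusted p was 0.68, and 6 of 8 estimates were higher in the libraries labelled KO, with a median log2 fold change of 0.07 against -0.02 over all tested genes. Without library 3, 5 of 8 were higher, with a median of 0.05. *Vdac2* does not separate these labels, so the test compares the labels and not the presence of *Vdac2*. Whether labels were exchanged between libraries before deposit was not tested, so each estimate is of the labels as deposited.

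*Mcu* averaged 18.5 ± 1.65 CPM (SD, n = 5) under the WT label and 19.1 ± 1.75 CPM (SD, n = 4) under the KO label. On the log2 scale edgeR estimated a change of 0.04 with a standard error of 0.098 (adjusted p = 0.87), smaller than the spread within each label. For *Slc8b1* the means were 6.55 ± 0.719 and 7.14 ± 0.415 CPM, and the log2 estimate was 0.13 with a standard error of 0.12. With each library left out, the estimate for *Slc8b1* ran from 0.070 (without library 4) to 0.155.

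The largest estimate among the members was that of *Mcub*, at -1.04 on the log2 scale (standard error 0.49, adjusted p = 0.68 from edgeR). It rested on library 3, labelled WT, without which it was -0.35 (adjusted p = 0.45). With all libraries, the WT label averaged 5.06 ± 4.34 CPM (SD, n = 5) and the KO label 2.47 ± 0.507 CPM (SD, n = 4).

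*Micu3* averaged 11.9 ± 0.457 CPM (SD, n = 5) under the WT label and 10.5 ± 0.508 CPM (SD, n = 4) under the KO label. The estimate by edgeR was -0.17 on the log2 scale with a standard error of 0.084 (adjusted p = 0.68), and it was -0.17 without library 3. Taken as a single gene, an exact permutation of its labels over the 9 libraries (two-sided, on log2 CPM) gave p = 0.024, and that of *Mcub* gave p = 0.048, both unadjusted and the lowest of the 8 members. The smallest p this design allows is 0.0079.

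The remaining members had small estimates. *Letm1* and *Smdt1* had log2 fold changes of 0.27 (standard error 0.15) and 0.25 (standard error 0.12), which fell to 0.16 for each without library 3. *Micu2* was at 0.09 (standard error 0.091), and at 0.035 to 0.145 with each library left out. *Mcur1* was at 0.05 with all libraries and at -0.11 without library 3, so that its direction rested on that library.

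**Figure D5:**
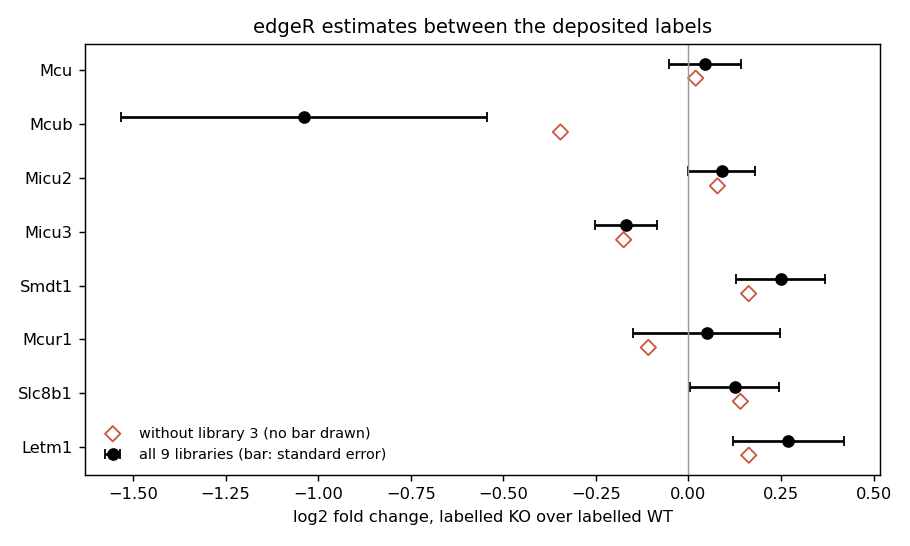
edgeR log2 fold changes of the 8 genes, libraries labelled KO over those labelled WT, with all 9 libraries (black, bars are standard errors) and without library 3 (open diamonds). *Mcub* moves from -1.04 to -0.35 without library 3, and *Mcur1* changes sign.

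Of 36 other genes of mitochondrial calcium handling, all were tested. Between the labels, edgeR's test called 0 of them, with 0 at an unadjusted p under 0.05, and DESeq2 also called 0. *Slc25a13* alone did not overlap between the labels (at most 192 CPM under WT, at least 194 CPM under KO), beside 4.36% of all tested genes. *Ucp3* had the largest estimate, 1.32 (edgeR adjusted p = 0.68), with library 3 lowest at 1.13 CPM. Exact permutation of single genes, unadjusted, gave its lowest p-values for *Rmdn3* (0.024), *Ucp3* (0.032), *Pdzd8* (0.040) and *Slc25a13* (0.048). The median log2 fold change of the 36 was 0.15, and 31 of 36 estimates were higher in the libraries labelled KO, beside 47.3% of all tested genes. Library 3, labelled WT, was the lowest library for 24 of the 36, and without it 26 of 36 estimates were higher, with a median of 0.07, beside 50.6% of all tested genes. Described by *Vdac2* level, 3 of the 36 were lower and 2 higher without overlap, 13.9% in all, which is near the 12.1% over all tested genes (4.93% lower and 7.16% higher). The genes are given as a description, and nothing particular to the list is read from them.

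The lower genes were *Tmem65*, which encodes an inner membrane protein tied to NCLX, *Ogdh*, a calcium-stimulated matrix dehydrogenase, and *Gpd2*, a calcium-sensing glycerol phosphate dehydrogenase. *Tmem65* was at 196 to 231 CPM in the *Vdac2*-low libraries, 241 to 293 CPM in the *Vdac2*-high libraries and 80.8 CPM in library 3. *Ogdh* was at 946 to 1204 against 1378 to 1545 CPM, with 423 CPM in library 3, and *Gpd2* at 17.1 to 19.0 against 19.3 to 20.8 CPM. The separation was widest for *Ogdh*, with pair ratios from 0.612 to 0.874. For *Gpd2* the nearest libraries, 5 and 2, were at 18.98 and 19.27 CPM from 622 and 527 reads. This gap was not set against counting error, so the separation of *Gpd2* is not shown to be clear of it.

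The higher genes were *Ucp2*, a proton and metabolite carrier of the inner membrane, and *Efhd1*, a calcium-binding mitochondrial protein. *Ucp2* was at 41.1, 29.5, 31.4 and 21.8 CPM in libraries 1, 5, 7 and 9 and at 13.8, 13.4, 17.1 and 14.0 CPM in libraries 2, 4, 6 and 8. Its pair ratios ran from 1.28 to 3.06, wider than those of any of the 8 members, with 37.1 CPM in library 3. *Efhd1* was at 3.48 to 4.22 against 2.38 to 3.27 CPM, with 2.43 CPM in library 3. The nearest values of *Efhd1*, in libraries 5 and 8, came from 114 and 111 reads. Their gap was not set against counting error, so the separation of *Efhd1* is not shown to be clear of it.

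The other porins overlapped between the *Vdac2*-low and the *Vdac2*-high libraries. *Vdac1* was at 682 to 763 against 692 to 812 CPM and *Vdac3* at 60.3 to 71.3 against 59.5 to 66.1 CPM.

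The genes whose profile over the 9 libraries was nearest to that of *Mcu* were *Yod1*, *Fastkd3* and *Taf11*, with root mean square differences of centred log2 CPM of 0.046, 0.047 and 0.049. *Fastkd3*, which encodes a mitochondrial RNA-binding protein, was at 8.11, 8.21, 8.51 and 8.43 CPM in libraries 1, 5, 7 and 9 and at 9.32, 8.60, 9.12 and 9.59 CPM in libraries 2, 4, 6 and 8. The genes nearest to *Mcub*, the member with the widest spread outside library 3 (1.90-fold), were *Dse*, *Olfml3* and *Mybl1*, at 0.12, 0.13 and 0.14. Like *Mcub*, each was highest in library 3, at 102 CPM for *Dse*, 82.4 CPM for *Olfml3* and 10.4 CPM for *Mybl1*. These are descriptions over 9 libraries that differ in depth and composition, library 3 most in composition.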

How the data were processed

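Total RNA of left ventricular tissue was depleted of ribosomal RNA and made into stranded libraries, and the single-end reads were mapped to GRCm38. The authors deposited raw counts per Ensembl gene, without normalization. The submitters' processing notes name STAR 2.7.2c, featureCounts 1.6.3 and DESeq2, and the annotation release and strand setting are not given in the sources used here. Library columns were matched to samples by the library number in the titles, and groups are the deposited labels. The main test was edgeR 4.0.16 in R 4.3.3, with filterByExpr, TMM normalization, robust dispersions and the quasi-likelihood F-test over 9 libraries, and each standard error was obtained from the estimate and its F statistic (|estimate| over root F). Calls are adjusted p under 0.05. Gene models are GENCODE M21. No pair of libraries agreed within sampling noise (lowest chi-square per degree of freedom 7.10).

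The members and lists were chosen with earlier results of these data known. Named are the members, *Vdac2*, other pathway genes called or without overlap (at most 10), and the 3 genes nearest in profile to *Mcu* and to the member of widest spread. Some further genes are named as context, after their values were seen. On counts simulated for the labelled comparison (16185 genes tested), 80.6% of genes changed by 1 and 100% of genes changed by 2 on the log2 scale were recovered, 0 with the wrong sign. The simulation assumed a dispersion of 0.05 and no library that stands apart, so it checks the script and does not give the power of the real comparison. Counting errors cover counting alone. Alternatives were DESeq2 1.42.0, RLE and upper-quartile scaling, no filter, mitochondrially encoded genes left out, exact permutation tests, other scalings of the described division and each library left out. Some pathway genes are not reported here. Proteins and other assays were not analysed here.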

Additional observations from a re-analysis of the deposited data

Results flagged for a closer look

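Library 3, labelled WT, lay apart from the other libraries of its label for 8 of 22 genes examined. The 22 genes were the 8 members, *Vdac2*, the other porins, the 5 pathway genes without overlap by *Vdac2* level and the 6 genes nearest in profile. Cell type markers were not examined in this way. Its gap to the nearest library, divided by the range of the label's libraries, exceeded Dixon's critical value of 0.71 for 5 samples. Library 3 held 12.8 CPM of *Mcub* against at most 3.33 CPM in the other 4. It held 48.6 CPM of *Smdt1* against at least 65.7 CPM, and 32.4 CPM of *Mcur1* against at least 60.8 CPM. The porin genes were low in it as well, with 283 CPM of *Vdac1* against at least 682 CPM and 32.6 CPM of *Vdac3* against at least 59.5 CPM. The genes nearest to *Mcub*, chosen on a profile that includes library 3, were high, with 102 CPM of *Dse* against at most 25.8 CPM, 82.4 CPM of *Olfml3* against at most 22.8 CPM and 10.4 CPM of *Mybl1* against at most 2.65 CPM. Of 44 groups (22 genes in each label), these were the 8 found, all in library 3. Chance gives about 5% of groups, but the 8 cannot be set against that share. *Dse*, *Olfml3* and *Mybl1* were chosen for a profile like that of *Mcub*, and all 8 values come from the same library.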

How the results depend on the processing

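The 0 members and 0 pathway genes called between the labels stayed at 0 under DESeq2, RLE and upper-quartile scaling, no filter, mitochondrially encoded genes left out and each library left out. The count over all genes, 9, was 62 with DESeq2 and from 5 to 62 with each library left out, 62 without library 3. With each library left out, the log2 fold change ran from -0.011 (without library 8) to 0.10 for *Mcu*, from -0.11 (without library 3) to 0.11 for *Mcur1* and from -1.18 to -0.35 for *Mcub*, and only *Mcu* and *Mcur1* changed sign. The cause was not tested. The 2 members without overlap by *Vdac2* level became 1 with total counts (13.9% of all genes), 0 relative to nuclear oxidative phosphorylation genes (16.2%) and 5 within each label (19.9%), where fewer libraries are compared. They were 2 or 3 with each library left out (14.9% to 17.8% of all genes), the third being *Letm1* without library 9 or 4 and *Slc8b1* without library 6. No paired analysis was possible because the labels give no library number to both groups. Among the members, depth limits *Mcub* most, with a counting error of 12.3% in library 6.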
